A study of Xenopus laevis with 4 samples.

Results

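Molecular chaperones are proteins that help other proteins reach and keep their folded shape, and cochaperones steer them or drive their cycles of ATP use. In the cytosol, HSP70 proteins take up new chains with the help of J proteins and nucleotide exchange factors. HSP90 finishes the folding of kinases and receptors, prefoldin and the ring-shaped chaperonin CCT fold actin and tubulin, and prolyl isomerases of the FKBP and cyclophilin families speed the slow turning of proline bonds. Heat shock transcription factors switch on the inducible members under stress. In the pancreas, where the exocrine cells make large amounts of secreted enzyme, related proteins of the endoplasmic reticulum, the entry compartment of the secretory route, carry a heavy load of folding work.

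The genes described here were chosen by symbol: HSP90, HSP70, HSP60 with HSP10 and small heat shock proteins, J proteins, CCT subunits, BAG proteins, HSP90 cochaperones, prefoldins, FKBPs, cyclophilins and heat shock factors, without the reticulum chaperones hspa5 and hsp90b1. The choice found 103 probe sets for 84 genes, of 9304 probe sets for 7531 genes with a single gene symbol on the array. It was meant to gather cytosolic proteins, but 31 of the 103 probe sets were assigned to the endoplasmic reticulum (18 probe sets) or to mitochondria (13). The assignment left out dnajb12.S and dnajb14.S, whose proteins are also known from the reticulum membrane. The group is therefore called the folding genes below. Of the 103, 90 probe sets for 74 genes were bright enough to be tested, by a filter on mean intensity over all 4 arrays.

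The samples were dorsal and ventral pancreatic buds of *Xenopus laevis* tadpoles, the outgrowths of the gut tube that later join into 1 pancreas, taken before they fused. Each group had 2 pools of 1000 to 3000 buds, and each pool had its own 1-colour Affymetrix array. The labels name no genotype, strain, age or treatment that differs between the groups, and tadpoles of both were anaesthetised with MS-222. Whether the pools of a group came from different clutches is not stated, so the p-values cover the variation among these arrays alone, and that may be technical.

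The deposited intensities had the same mean, 100, on every array. The marker lists bore out the labels in part: the summed intensity of 14 endocrine genes was 3696 and 4410 in dorsal pools, against 186 and 153 in ventral pools, and that of 14 exocrine genes was between 6117 and 16089 on all arrays. Ventral pools also had a higher summed signal of liver and of blood genes, and its source was not tested. The sum over 20 liver genes was 2730 and 4942 in dorsal pools, against 7153 and 6958 in ventral pools, and over 14 blood genes it was 9211 and 5852 in dorsal pools, against 10949 and 15300 in ventral pools. In bulk samples like these, fewer cells of a type and less RNA per cell cannot be told apart. The precision of every comparison is limited by the 4 arrays.

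The folding genes were close to even between the buds. In limma, with p-values adjusted by Benjamini-Hochberg over 9294 probe sets, 0 of the 90 tested folding probe sets passed an adjusted p of 0.05, where 0.258% of all probe sets did. At an unadjusted p under 0.05, 1 was higher in dorsal buds (3.41% of all probe sets) and 2 were higher in ventral buds (5.21% of all). The 95% interval of the log2 difference lay inside 2-fold in both directions for 86 of 90, or 95.6%, against 82.2% of all probe sets. The folding probe sets were also brighter than most, with a median mean log2 intensity of 7.37 against 5.92 over all, and its part in this share was not tested. That count of 86 was lower whenever 1 array was left out, and the share over all probe sets in those fits is not given here. Sizes and calls depended on single arrays. Of 58 named genes with a test, 49 had a log2 difference that moved by over 1.5 times when 1 array was left out; the other 9 were dnaja2.S, dnajc27.L, hspd1.S, hspe1.L, fkbp1a.L, fkbp1a.S, fkbp1b.S, hsf2.L and egr1.L. Without dorsal replicate 1, 4 folding probe sets passed, for fkbp1b.S, fkbp11.L, fkbp9.L and hspd1.S, along with 9.71% of all probe sets.

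**Figure D1:**
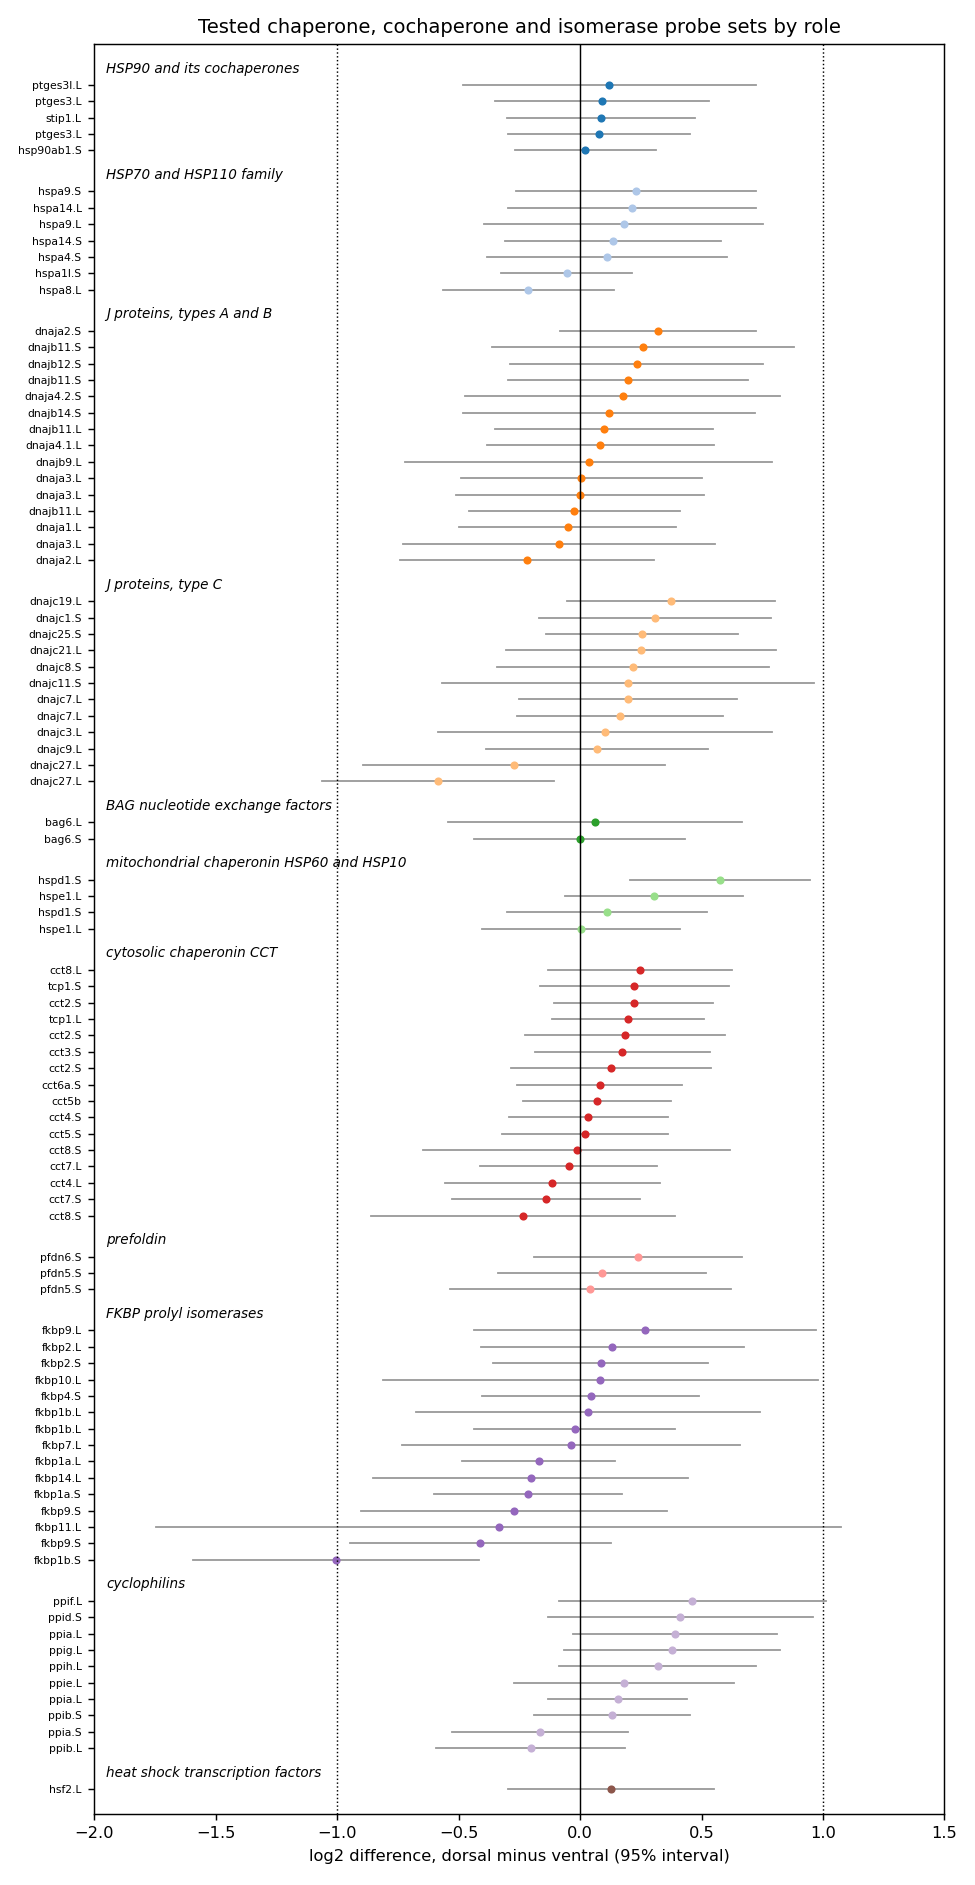
Log2 difference (dorsal minus ventral, x axis) of the 90 tested probe sets of folding genes, grouped by role, 1 row a probe set. Points are the fitted differences, lines their 95% intervals and dotted lines mark 2-fold; 4 intervals reach past a dotted line, those of fkbp11.L, fkbp1b.S, ppif.L and 1 probe set of dnajc27.L.

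Below the level of single calls there was a slight lean to the dorsal side, which depended in part on the scaling and was partly shared by bright probe sets in general. The median log2 difference of the folding probe sets was 0.09, against 0.03 for all probe sets tested, and 64 of 90 (71.1%) were above 0, as were 54.3% of all probe sets. In 24 of them both dorsal arrays lay above both ventral arrays, which held for 21.9% of all probe sets. In 6 both ventral arrays lay above both dorsal ones, which held for 18.1% of all. With only probe sets above the 60th percentile of mean log2 intensity tested, 23 of 80 folding probe sets lay apart on the dorsal side. On the ventral side 4 did. Of all probe sets that bright, 24.7% lay apart on the dorsal and 16.1% on the ventral side. Their median was 0.05, against 0.09 for the folding ones. After quantile normalization the split of 24 to 6 became 17 to 9, where 20.6% of all probe sets lay apart on the dorsal and 17.9% on the ventral side, and the median was 0.05, against 0.02 over all. The dorsal share of non-overlapping folding probe sets was then no higher than that of all probe sets. The trimmed means of the dorsal arrays stood 0.05 log2 units above those of the ventral arrays.

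The genes grouped as HSP90 and its cochaperones were close to even, and hsp90aa1 had no probe set under a single symbol. The cytosolic HSP90 gene hsp90ab1.S had intensities of 3816 and 3088 in dorsal pools, against 3369 and 3391 in ventral pools. The ventral values lay between the dorsal ones, and the log2 difference was 0.02 (95% interval -0.27 to 0.31, adjusted p = 0.972). For stip1.L, the adaptor that passes client proteins along to HSP90 from HSP70, intensities were 623 and 530 in dorsal pools, against 592 and 495 in ventral pools. The pools overlapped, with a log2 difference of 0.09 (-0.30 to 0.47, adjusted p = 0.923). The cochaperone p23 is encoded by ptges3.L, at 541 and 466 in dorsal pools, against 445 and 507 in ventral pools (log2 difference 0.08, adjusted p = 0.927). All 5 probe sets of this group had fitted differences above 0 and up to 0.12, and 3 of 5 were above 0 after quantile normalization. The pools lay apart in 0 of 5, against 21.9% of all probe sets on the dorsal and 18.1% on the ventral side. Without dorsal replicate 1 all 5 were below 0, with a median of -0.12, so the group had no settled direction. Among HSP90 partners outside the group, ppid.S (0.41), ahsa1.L (0.45), ahsa1.S (0.34) and dnajc7.L (0.16 and 0.20) were higher on both dorsal arrays. The pools of fkbp4.S (0.04) and cdc37.S (0.06) overlapped, and chordc1.S (-0.04) was higher on both ventral arrays.

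Among the HSP70 genes, with a median of 0.14 over 7 probe sets (-0.0027 without dorsal replicate 2), the abundant cytosolic ones had overlapping pools. The constitutive heat shock cognate hspa8.L stood at 1640 and 1271 in dorsal pools, against 1726 and 1626 in ventral pools. The groups overlapped, and its log2 difference was -0.21 (95% interval -0.57 to 0.14, adjusted p = 0.749). Without 1 array it ran from -0.40 to -0.03. For hspa1l.S, which the RefSeq table also lists under the name hsc70, intensities were 1920 and 2068 in dorsal pools, against 1970 and 2177 in ventral pools. Its pools overlapped at a log2 difference of -0.06 (-0.33 to 0.21, adjusted p = 0.927), which was 0.00080 after quantile normalization. The HSP110-type exchange factor hspa4.S differed by 0.11 (adjusted p = 0.922). Both copies of hspa14, whose protein joins new chains at the ribosome in mammals, were a little higher on each dorsal array. The values of hspa14.S were 81.2 and 80.7 in dorsal pools, against 78.0 and 68.6 in ventral pools (log2 difference 0.14, adjusted p = 0.890). Those of hspa14.L were 25.8 and 26.4 in dorsal pools, against 23.6 and 19.9 in ventral pools (0.22, adjusted p = 0.820).

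The J proteins, which bring clients to HSP70 and set off its ATP use, followed the same picture. Among 15 tested probe sets of types A and B, the median was 0.08 (-0.020 without ventral replicate 2). Of these, 2 lay higher on both dorsal arrays (21.9% of all probe sets) and 0 on both ventral arrays (18.1% of all). The main cytosolic J protein dnaja1.L was at 435 and 335 in dorsal pools, against 361 and 434 in ventral pools (log2 difference -0.05, adjusted p = 0.960). Its relative dnaja2.S was at 174 and 184 in dorsal pools, against 138 and 146 in ventral pools (0.32, 95% interval -0.08 to 0.72, adjusted p = 0.660). The pools of dnaja2.S did not overlap. The mitochondrial dnaja3.L had 3 probe sets, all overlapping, at -0.09 to 0.005. The reticulum J protein dnajb11, a partner of the chaperone BiP, had 4 probe sets over both copies, at -0.02 to 0.26.

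Type C J proteins, a mixed class with specialised sites of work, had 5 of 12 tested probe sets higher on both dorsal arrays and 1 higher on both ventral arrays, against 21.9% and 18.1% of all probe sets. After quantile normalization these were 3 and 1, against 20.6% and 17.9% of all, so the dorsal count was near the background. The mitochondrial import motor gene dnajc19.L stood at 208 and 172 in dorsal pools, against 144 and 144 in ventral pools (log2 difference 0.37, interval -0.06 to 0.80, adjusted p = 0.649). For the reticulum membrane J protein dnajc1.S the values were 137 and 122.997 in dorsal pools, against 91.5 and 118 in ventral pools (0.31, adjusted p = 0.728). The HSP70 and HSP90 adaptor dnajc7.L was higher on both dorsal arrays in each of its probe sets, at 0.16 and 0.20, and dnajc25.S was at 422 and 345 in dorsal pools, against 317 and 320 in ventral pools (0.26, adjusted p = 0.728). The ventral one was dnajc27.L, a small GTPase fused to a J domain, at 24.1 and 25.6 in dorsal pools, against 40.2 and 40.2 in ventral pools. Its log2 difference was -0.58 (interval -1.06 to -0.11, adjusted p = 0.468). A further dnajc27.L probe set overlapped between the pools, at 20.5 and 31.6 in dorsal, against 37.2 and 27.6 in ventral (-0.27, adjusted p = 0.814).

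**Figure D2:**
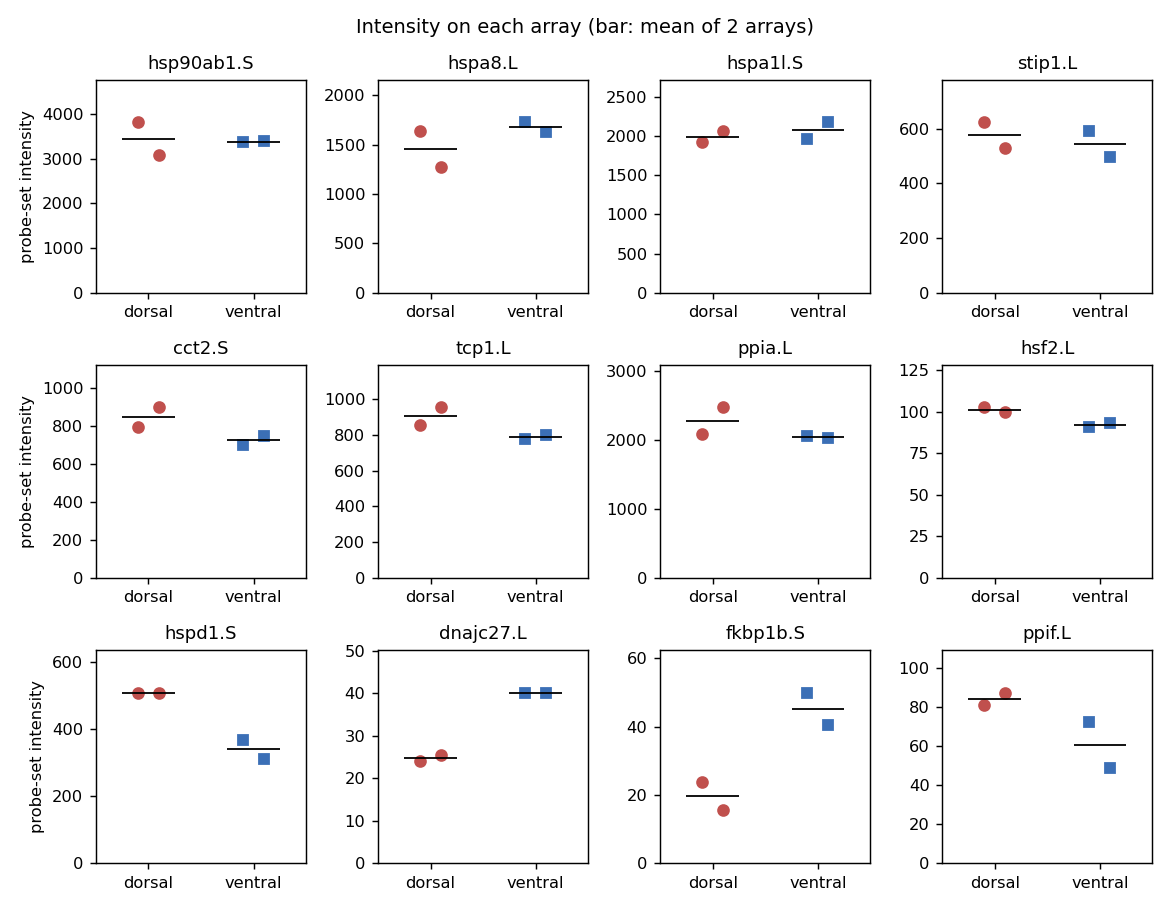
Deposited intensity (y axis, linear from 0) of 12 folding genes on each array, 1 panel a gene, with the brightest probe set of each; circles are dorsal pools, squares ventral pools and bars the mean of 2 arrays. Pools of hsp90ab1.S, hspa8.L, hspa1l.S and stip1.L overlap, while those of the other 8 genes do not. Of these, fkbp1b.S and dnajc27.L are higher in ventral pools. Several of the genes shown were named for a large difference without overlap in their role. Pools lie apart in 30 of the 90 tested folding probe sets. Of all probe sets, 21.9% lie apart on the dorsal and 18.1% on the ventral side.

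The largest dorsal difference of any tested folding probe set was in a mitochondrial chaperonin gene, in 1 of its 2 tested probe sets. HSP60, encoded by hspd1, forms with HSP10, encoded by hspe1, the folding cage of mitochondria. The brightest probe set of hspd1.S was at 507 and 509 in dorsal pools, against 368 and 311 in ventral pools. These pools stood apart, with a log2 difference of 0.58 (95% interval 0.21 to 0.95), and the adjusted p was 0.300. When 1 array was left out, the difference ran from 0.46 to 0.70. The other tested probe set of hspd1.S did not separate the pools, at 333 and 369 in dorsal, against 362 and 291 in ventral (0.11, adjusted p = 0.905). Of the pair for hspe1.L, the brighter was at 438 and 420 in dorsal pools, against 370 and 324 in ventral pools (0.30, adjusted p = 0.654). The other was at 410 and 325 in dorsal pools, against 371 and 357 in ventral pools, a difference of 0.004. The mitochondrial HSP70 partner hspa9 overlapped between the pools in both copies, with hspa9.L at 0.18 and hspa9.S at 0.23.

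The cytosolic chaperonin CCT was covered by 16 probe sets for 13 genes, all tested. All 16 intervals lay between -0.86 and 0.63, and the median difference was 0.07 (0.01 after quantile normalization, and 0.04 to 0.13 without 1 array). Both dorsal arrays were above both ventral arrays in 4 of 16, near the 21.9% of all probe sets, and the reverse held in 0, against 18.1% of all. After quantile normalization 2 lay each way, against 20.6% of all probe sets on the dorsal and 17.9% on the ventral side. For the subunit gene cct2.S the brightest probe set was at 793 and 896 in dorsal pools, against 697 and 748 in ventral pools (0.22, adjusted p = 0.720). The values of tcp1.L, the founding subunit, were 855 and 953 in dorsal pools, against 774 and 800 in ventral pools (0.20, adjusted p = 0.738). Its homeologue tcp1.S, the second copy that genome duplication left in this frog, overlapped, with 781 and 839 in dorsal pools, against 609 and 788 in ventral pools (0.22, adjusted p = 0.753, and 0.04 to 0.41 without 1 array). The subunit genes cct8.L and cct3.S were also higher on both dorsal arrays, by 0.25 (adjusted p = 0.727) and 0.17 (adjusted p = 0.793). Further probe sets of cct2.S overlapped between the pools, at 0.19 and 0.13. Fitted differences were below 0 in 5 of the 16 probe sets, among them those of the homeologue of cct8.L, and the pools of all 5 overlapped. Prefoldin, which hands actin and tubulin chains to CCT, was represented under the symbol rule by pfdn6.S and pfdn5.S. The values of pfdn6.S were 170 and 205 in dorsal pools, against 163 and 153 in ventral pools (0.24, adjusted p = 0.761). Both probe sets of pfdn5.S overlapped, at 0.04 and 0.09. Outside the rule, the prefoldin subunit gene vbp1 was at 0.22 for vbp1.L, without overlap, and at 0.25 for vbp1.S, with overlap.

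Among cyclophilins, the targets of cyclosporin, those with the symbols ppia to ppih had most of their probe sets on the dorsal side. Of 10 tested, 7 were higher on both dorsal arrays (21.9% of all probe sets) and 1 on both ventral arrays (18.1% of all). After quantile normalization the counts were 6 and 2, against 20.6% and 17.9% of all. Their median was 0.25, at 0.20 after quantile normalization and between 0.15 and 0.27 without 1 array. The 7 took in both probe sets of ppia.L. No cyclophilin passed the threshold. Further cyclophilin-type genes outside the symbol rule were ppil1.L (0.14), ppil2.S (0.09), ppwd1.S (0.32) and cwc27.S (0.21). Of these, only cwc27.S was higher on both dorsal arrays, and the pools of the others overlapped. The mitochondrial ppif.L, a regulator of the permeability pore, was at 81.3 and 87.6 in dorsal pools, against 72.7 and 48.7 in ventral pools (log2 difference 0.46, interval -0.09 to 1.01, adjusted p = 0.654). Without ventral replicate 2 it was at 0.20 and without ventral replicate 1 at 0.72. The HSP90 partner ppid.S was at 92.5 and 122 in dorsal pools, against 67.5 and 90.5 in ventral pools (0.41, adjusted p = 0.676, and 0.22 to 0.61 without 1 array). The nuclear cyclophilin gene ppig.L was at 227 and 182 in dorsal pools, against 148 and 162 in ventral pools (0.38, adjusted p = 0.654). The splicing cyclophilins ppih.L and ppie.L differed by 0.32 (adjusted p = 0.660) and 0.18 (adjusted p = 0.836), with no overlap in either. The reticulum cyclophilin ppib overlapped in both copies, at -0.20 for ppib.L and 0.13 for ppib.S.

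The main cytosolic cyclophilin ppia went opposite ways in its homeologues. The brightest probe set of ppia.L was at 2086 and 2468 in dorsal pools, against 2049 and 2023 in ventral pools (0.16, adjusted p = 0.765), and a dimmer one at 122 and 127 in dorsal pools, against 95.5 and 91.5 in ventral pools (0.39, adjusted p = 0.620). That of ppia.S was at 379 and 338 in dorsal pools, against 390 and 415 in ventral pools (-0.16, adjusted p = 0.804). No overlap was seen in any of these probe sets, while all 3 intervals included 0.

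FKBPs, the targets of FK506 and rapamycin, were the role group with the most probe sets on the ventral side. Of 15 tested, 0 were higher on both dorsal arrays (21.9% of all probe sets) and 4 on both ventral arrays (18.1% of all), with the same counts after quantile normalization. Without dorsal replicate 1, 7 lay apart on each side, against 43% of all probe sets on the dorsal and 36% on the ventral side. Without dorsal replicate 2, 3 lay apart on the dorsal and 12 on the ventral side, against 39.2% and 36% of all. The largest difference of all folding probe sets was that of fkbp1b.S, whose protein binds and steadies ryanodine receptor calcium channels in mammalian heart and muscle. It stood at 23.9 and 15.6 in dorsal pools, against 49.96 and 40.5 in ventral pools. The pools stood apart by -1.005 on the log2 scale (95% interval -1.59 to -0.42), which did not pass (adjusted p = 0.235). When 1 array was left out, the difference ran from -1.24 to -0.77. With 4 times the pseudocount (the 6 units added to every intensity before log2) it was at -0.66. Its dorsal mean of 19.8 lay below 21.5, the highest value of the array's 17 Tag control probe sets, which stand for no frog gene. The dim second probe set of fkbp1b.S was not tested, and fkbp1b.L was even at 174 and 203 in dorsal pools, against 197 and 184 in ventral pools (-0.02, adjusted p = 0.980).

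Markers of skeletal muscle were higher in ventral pools too. In limma 0 of 12 tested passed the threshold, and 8 were higher in ventral pools at an unadjusted p under 0.05 (5.21% of all probe sets). The summed intensity of 20 muscle genes was 528 and 389 in dorsal pools, against 895 and 1198 in ventral pools. Of the 12 tested, 9 were higher on both ventral arrays (18.1% of all) and 1 on both dorsal arrays (21.9% of all). On every array 8 of the 20 stayed under the highest Tag control. The part of muscle RNA in the fkbp1b.S difference was not tested.

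Replicates lay close together for fkbp1a, the small cytosolic FKBP that rapamycin binds. The copy fkbp1a.L was at 668 and 630 in dorsal pools, against 739 and 723 in ventral pools (-0.17, adjusted p = 0.765), and fkbp1a.S at 181 and 177 in dorsal pools, against 212 and 205 in ventral pools (-0.22, adjusted p = 0.760). Both copies were higher on each ventral array. The steroid receptor cochaperone fkbp4.S was level, at 106 and 90.2 in dorsal pools, against 97.3 and 92.5 in ventral pools (0.04, adjusted p = 0.964). For fkbp9.S, a reticulum FKBP, the brighter probe set was at 39.2 and 51.9 in dorsal pools, against 55.3 and 69.4 in ventral pools (-0.41, adjusted p = 0.667).

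The small heat shock proteins and several heat-inducible genes were dim in both buds. The 13 probe sets that were not tested had intensities of at most 17.5, under the highest Tag control (21.5), on every array. They took in all 5 probe sets for small heat shock proteins, among them hspb1.L at 4.29 and 1.31 in dorsal pools, against 0.39 and 0.14 in ventral pools, and hspb1.S at 0.24 to 4.07 on all arrays. The heat-inducible hsp70.L was at 2.44 and 5.19 in dorsal pools, against 1.07 and 6.54 in ventral pools. For bag3.L, an exchange factor induced by stress, the values were 3.31 and 5.15 in dorsal pools, against 9.09 and 10.2 in ventral pools. The stress regulator hsf1 was at 10.8 to 17.5 on all arrays, and hspd1.L was at 5.05 to 10.8 on all arrays. Whether these values were called present is unknown. In turn hsf2.L, the factor tied to development in mammals, was at 102 and 99.5 in dorsal pools, against 90.9 and 93.1 in ventral pools (0.13, adjusted p = 0.892).

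The immediate-early and stress list, whose genes respond fast to handling of tissue, gave a median of 0.11 over 17 tested genes of 20. Of the 17, 6 were higher on both dorsal arrays (21.9% of all probe sets) and 1 on both ventral arrays (18.1% of all). None of the 17 passed in limma, and 1 was higher in dorsal pools at an unadjusted p under 0.05 (3.41% of all probe sets). That gene was the growth-response factor egr1.L, at 75.1 and 62.5 in dorsal pools, against 24.9 and 22.3 in ventral pools (log2 difference 1.33, interval 0.84 to 1.83, adjusted p = 0.0817). Its pools did not overlap. When 1 array was left out, its log2 difference ran from 1.21 to 1.45. The gene was singled out after its value was seen.

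Other folding genes outside the symbol rule were also close to even. Of 34 such genes, which cover HSP110, HSP90 activators, tubulin cofactors, ribosome-bound factors and further isomerases, 31 were tested and 0 passed in limma, with 0 at an unadjusted p under 0.05. All 31 intervals lay inside 2-fold both ways. Their median was 0.09, with 8 of 31 higher on both dorsal arrays, near the 21.9% of all probe sets, and 2 on both ventral arrays, against 18.1% of all. At the dorsal end was ahsa1, the activator of the HSP90 ATPase, with ahsa1.L at 34.3 and 41.3 in dorsal pools, against 30.0 and 22.4 in ventral pools (0.45, adjusted p = 0.654). Its homeologue ahsa1.S was at 77.2 and 92.4 in dorsal pools, against 66.5 and 64.5 in ventral pools (0.34, adjusted p = 0.687).

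Both homeologues were tested for 15 folding genes. Their log2 differences lay within 0.15 of each other for 8 genes, as in tcp1 (0.20 for .L and 0.22 for .S) and bag6 (0.06 and -0.0022), a guard of misplaced membrane proteins in mammals. Both copies of bag6 were below 0 after quantile normalization, with a median of -0.040. The copies had opposite signs in 8 genes. The widest gaps were those of fkbp1b (-0.02 for .L and -1.005 for .S), fkbp9 (0.27 and -0.41) and dnaja2 (-0.22 and 0.32). Neither the gaps nor binding of one copy's probes to transcripts of the other was tested. Among 14 genes with more than 1 tested probe set the range of log2 differences was under 0.1 in 7, and the widest was 0.47, in hspd1.S.

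**Figure D3:**
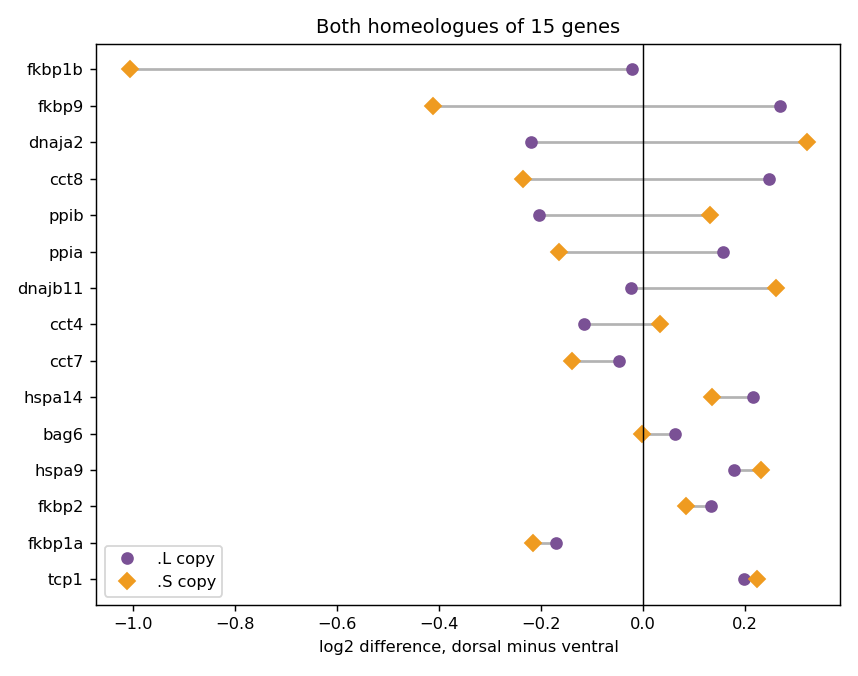
Log2 difference (dorsal minus ventral, x axis) of the .L copy (circles) and the .S copy (diamonds) of the 15 folding genes with both tested, each by its brightest probe set and ordered by the gap. The gap is widest for fkbp1b, with -0.02 for .L and -1.005 for .S, and narrowest for tcp1.

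Several genes of the endoplasmic reticulum differed more between replicates of a group than between the buds. Among them were fkbp11.L, fkbp10.L and dnajb9.L. Genes of other locations did so too, such as hspa9.L and bag6.L. Over all tested probe sets the median absolute log2 difference was 0.28 between dorsal and 0.17 between ventral replicates, against 0.18 between the buds. These measures are unlike, since a bud difference compares group means, which vary less than the single arrays behind a replicate difference. Of the 10 folding probe sets with the highest within-group SD on the log2 scale, 7 belonged to reticulum genes, by locations assigned after the values were seen. The median within-group SD was 0.32 for the 18 probe sets assigned to the reticulum, 0.17 for the 12 mitochondrial ones and 0.14 for the 60 others. Over all probe sets tested it was 0.19. The 60 others included dnajb12.S (0.23) and dnajb14.S (0.26), so the reticulum median depends on the assignment. The CCT probe sets had a median of 0.13.

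The widest spread was that of fkbp11.L, a membrane isomerase of secretory cells, with an SD of 1.09. It was at 894 and 229 in dorsal pools, against 810 and 406 in ventral pools, so replicate 1 was the higher in both groups. The difference between the buds was -0.34 (95% interval -1.74 to 1.07, adjusted p = 0.921), and it was -1.303 without dorsal replicate 1 (adjusted p = 0.00435) and 0.63 without dorsal replicate 2. In 2 J protein genes of the unfolded protein response replicate 1 was also the higher in both groups. Intensities of dnajb9.L were 115 and 62.3 in dorsal pools, against 101 and 67.3 in ventral pools, and those of dnajc3.L were 90.9 and 66.4 in dorsal pools, against 94.7 and 54.5 in ventral pools.

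Some reticulum FKBPs ran the opposite way. Over the 18 probe sets assigned to the reticulum, replicate 1 was the higher in both groups in 5, replicate 2 in 7, and 6 were mixed. Over all 9294 tested probe sets these counts were 2318, 2464 and 4512. For the 12 mitochondrial folding probe sets they were 6, 1 and 5. The collagen isomerase gene fkbp10.L was at 83.5 and 184 in dorsal pools, against 92.8 and 148 in ventral pools, with replicate 2 the higher in both groups. Likewise fkbp14.L was at 62.9 and 110 in dorsal pools, against 90.4 and 104 in ventral pools, and fkbp7.L at 26.0 and 49.7 in dorsal pools, against 34.9 and 39.9 in ventral pools. For fkbp9.L, in which replicate 2 was the higher in dorsal pools alone, the dorsal pools were 94.3 and 177, against 117 and 97.2 in ventral pools. The difference of fkbp9.L was 0.70 without dorsal replicate 1 and -0.17 without dorsal replicate 2. In each of these genes the pools of the buds overlapped.

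**Figure D4:**
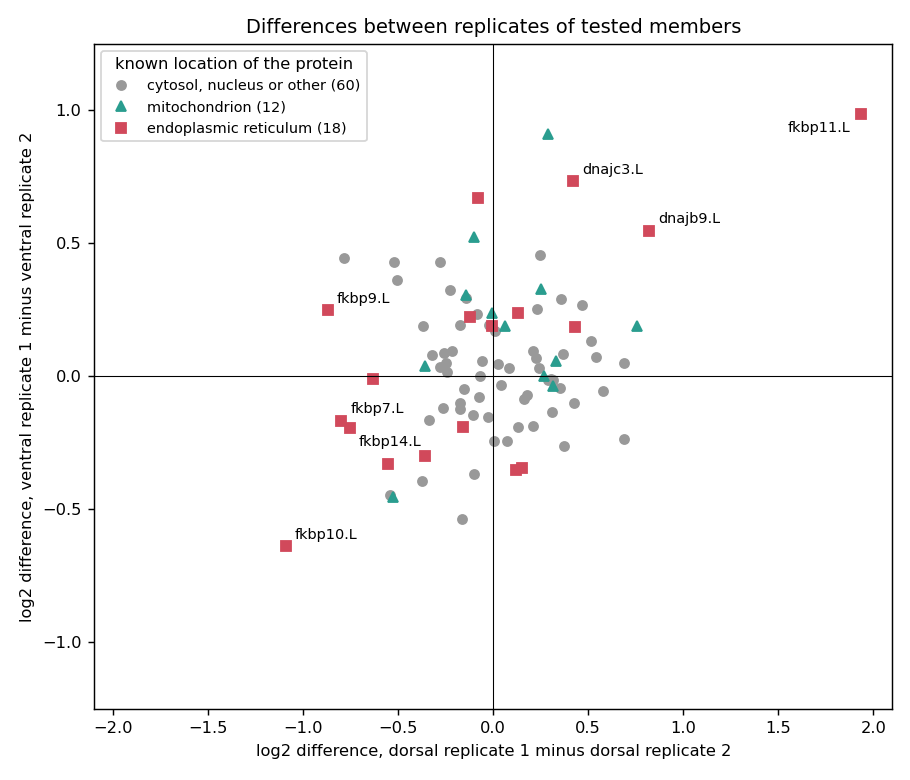
Log2 difference between replicates 1 and 2 of the dorsal pools (x axis) and of the ventral pools (y axis) for the 90 tested folding probe sets, by the location assigned to the protein. Reticulum genes (squares) reach farthest from the origin, fkbp11.L at 1.94 and 0.99 on one side and fkbp10.L at -1.09 and -0.64 on the other.

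Markers of exocrine cells and of mesenchyme, the connective tissue around the bud, differed between replicates in the same direction by number in both groups. The labels do not say that numbers pair pools, and over all tested probe sets same-numbered arrays deviated together only weakly (correlation 0.05). Genes of a list may vary together, so the counts below are not independent. Exocrine genes summed to 16089 and 6117 in dorsal pools, against 12546 and 6574 in ventral pools, and 11 of 14 were higher in replicate 1 of both groups, with 0 higher in replicate 2 of both. Of the 14, 3 stayed under the highest Tag control on every array, among them the lipase pnlip.L and the elastase cela3b.L. Mesenchyme genes summed to 1465 and 2028 in dorsal pools, against 1772 and 2315 in ventral pools. In 6 of 13 replicate 2 was the higher in both groups and in 2 replicate 1 was, and 4 of the 13 stayed under the highest Tag control throughout. Other lists also held genes higher in replicate 2 of both groups. Neural genes summed to 117 and 267 in dorsal pools, against 147 and 196 in ventral pools. Of the 15, 7 were higher in replicate 2 of both groups and 3 in replicate 1, while 9 stayed under the highest Tag control. In the endocrine list these counts were 6, 3 and 5 of 14. Among tested mesenchyme genes, replicate 2 was the higher in both groups in 6 of 9, and replicate 1 in 0. For tested genes these counts were 2 and 1 of 4 in the neural list, and 2 and 1 of 7 in the endocrine list. The part of these tissues in the spread of the reticulum genes was not tested. Over all tested probe sets, replicate 1 was higher in both groups in 2318 and replicate 2 in 2464 of 9294.

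**Figure D5:**
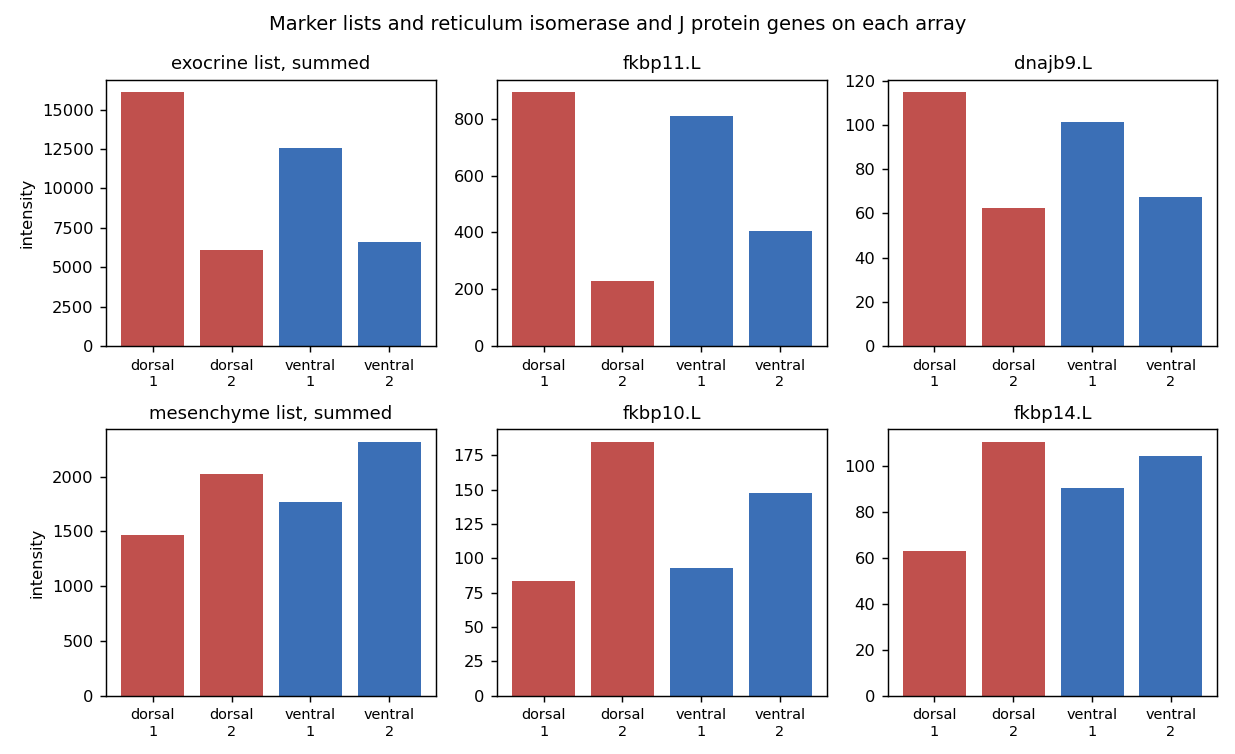
Intensity (y axis, linear from 0) on the 4 arrays of the exocrine and mesenchyme marker lists, each summed over its genes, beside reticulum folding genes; dorsal arrays are left of ventral arrays. In the upper row replicate 1 is the higher in both groups (fkbp11.L at 894 and 229 in dorsal, 810 and 406 in ventral pools), and in the lower row replicate 2 is. The reticulum genes shown were chosen after their values were seen, and 6 of the 18 reticulum probe sets were mixed.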

How the data were processed

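The deposited values were linear-scale probe-set intensities of 4 arrays, 1 column each, made by the authors with MAS5, per the submitters' processing notes; its version, scaling target and detection calls are not given in the sources used here. Per the labels' protocols, each pool held 1 to 5 ng of total RNA, and 15 µg of biotin-labelled copy RNA was fragmented for hybridisation. The labelling protocol describes a typical input of total RNA in micrograms, far above that of a pool, and whether RNA was amplified is not stated. Of 15611 probe sets, 120 controls were left out. Gene symbols came from the platform annotation and were updated through a RefSeq table (*Xenopus laevis* v10.1), which matched 102 of the 103 folding probe sets.

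A pseudocount of 6, the rounded 20th percentile, was added before log2, which understates differences of dim genes. Probe sets with a mean log2 above its 40th percentile (9294) were tested, dorsal minus ventral, with limma 3.58.1 in R 4.3.3 (lmFit, eBayes with an intensity trend), and p-values were adjusted over all of them by Benjamini-Hochberg. Deposited scaling was kept, since 2% trimmed means lay within 4% of each other. The procedure was tested on simulated data.

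The members and lists were chosen with earlier results of these data known. Genes were named by 3 rules: any past the threshold, up to 3 of largest difference per role with pools that do not overlap, and 22 core genes whatever their value. The core genes hsp90aa1, dnajb1 and fkbp5 had no probe set under a single symbol. The genes fkbp1b.L, fkbp7.L, fkbp9.L, fkbp10.L, fkbp11.L, fkbp14.L, dnajb9.L, dnajc3.L, hsp70.L, ppih.L, ppie.L, ppib, cct3.S, dnaja2.L, dnaja3.L, dnajb11, dnajc7.L, dnajc25.S, bag6, pfdn5.S, ahsa1.L, ahsa1.S and egr1.L, and second probe sets, were named after their values were seen. Alternatives covered the pseudocount, the filter, quantile normalization, the intensity trend, the replicate block and leaving out each array. The genes dnajb12.S and dnajb14.S were named for their location alone and are not counted among the named genes. No sequences were used.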

Additional observations from a re-analysis of the deposited data

How the results depend on the processing

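In limma, 0 folding probe sets passed the threshold with a pseudocount of 1 or 24, with no filter, with the filter at the 60th percentile, after quantile normalization, without the intensity trend and with the replicate block. The replicate block moved the count over all probe sets to 67, against 24 without it, and left the folding counts at 1 dorsal and 2 ventral at an unadjusted p under 0.05; among the named genes it moved the call of egr1.L alone (adjusted p = 0.0486). Arrays with the same number deviated together only weakly (correlation 0.05 over 9294 probe sets), and the labels do not say that numbers pair pools. The ventral count at an unadjusted p was 0 under the stricter 60th-percentile filter, where fewer probe sets are tested, and the median difference was 0.054 after quantile normalization. Without 1 array, calls ran from 0 to 4, unadjusted dorsal counts from 0 to 13 and ventral ones from 0 to 6, probe sets without overlap from 34 to 47 on the dorsal and from 14 to 24 on the ventral side (a lone array separates more easily), intervals inside 2-fold from 52 to 83, and the median from 0.058 to 0.14. A lone array was taken to vary like the other group. The shares of all tested probe sets without overlap also rose when 1 array was left out. They ran from 33.3% to 43% on the dorsal side, against 21.9% with every array kept. On the ventral side they ran from 28.9% to 36%, against 18.1%. The rise in the folding counts without overlap was therefore not particular to the folding genes. With 1 probe set a gene or without probe sets that may bind several transcripts, both chosen after seeing the data, 0 passed.

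Of 58 tested genes named by rule or after their values were seen, each by its brightest probe set, 32 kept their sign under all 11 alternatives and 4 more under the 10 that tested them, since the filter at the 60th percentile dropped fkbp1b.S, dnajc27.L, hspa14.L and ahsa1.L. After quantile normalization hspa1l.S was at 0.00080, ptges3.L at -0.024 and bag6.L at -0.0098. Without 1 array the others ran through 0: bag6.L from -0.28 to 0.41, bag6.S from -0.18 to 0.17, dnaja2.L from -0.49 to 0.050, dnaja3.L from -0.46 to 0.29, dnajb11.L from -0.12 to 0.071, dnajb11.S from -0.075 to 0.59, hsp90ab1.S from -0.13 to 0.17, stip1.L from -0.042 to 0.21, ptges3.L from -0.028 to 0.18, hspa1l.S from -0.13 to 0.016, hspa4.S from -0.052 to 0.27, hspa9.L from -0.084 to 0.44, dnaja1.L from -0.24 to 0.14, dnajb9.L from -0.38 to 0.45, dnajc3.L from -0.26 to 0.47, fkbp1b.L from -0.13 to 0.087, fkbp4.S from -0.069 to 0.16, fkbp7.L from -0.44 to 0.36, fkbp9.L from -0.17 to 0.70, fkbp10.L from -0.46 to 0.63, fkbp11.L from -1.303 to 0.63 and fkbp14.L from -0.58 to 0.17. The cause was not tested. The filter, intensity trend and replicate block leave the log2 difference as it is, so they could not change a sign. Where pools do not overlap, leaving out 1 array could not change it either.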
